A study of Mus musculus with 61 samples.

Results

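The comparison set Ngn3-expressing mouse pancreatic organoid cells at passage 5 against the same kind of cells at passage 2. Members were all libraries of cells carrying the GFP reporter of Ngn3 together with the reporter of Pdx1, of MafA or of both, in conditions that kept libraries of both passages: 26 of the 61 libraries of the series, of which 25 held over 1000000 gene counts and were summed into 15 samples, 10 at passage 2 and 5 at passage 5. Organoids were 3-dimensional cultures of C57BL/6 pancreatic duct cells, infected with lentiviral vectors and induced with doxycycline for 8 days. The infected cultures also received the doxycycline-dependent transactivator under a PGK promoter. Pools of 50 cells were sorted by the GFP of Ngn3, the LSS/Orange of Pdx1 and the tdTomato of MafA.

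The 5 conditions were wild-type Ngn3 + MafA, wild-type Ngn3 + Pdx1, wild-type Ngn3 + Pdx1 + MafA, 6SA Ngn3 + MafA and 6SA Ngn3 + Pdx1. 6SA Ngn3 carries alanine in place of the serines of 6 phosphorylation sites. Each condition held replicates 1 and 2 at passage 2 and replicate 3 at passage 5, so passage and culture batch cannot be told apart. The sorted fractions fall into 6 combinations of Ngn3 form and replicate number, 4 at passage 2 and 2 at passage 5. Where fractions with the same form and number came from 1 culture, which the labels do not state, p-values over 15 samples treat related samples as independent. Rearranging the passage label over those 6 cultures within each form gives 9 arrangements, so that an exact permutation test cannot go below a one-sided p of 0.111. Where wild-type and 6SA cultures of the same number share a batch, the independent units are fewer and that floor is higher.

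Ngn3 (gene symbol Neurog3) is the basic helix-loop-helix factor that starts endocrine differentiation in the pancreas. It turns on further transcription factors such as Neurod1, Isl1 and Rfx6, and later the genes of hormones and of the secretory granules that store and release them. Pdx1 and MafA are factors of the beta-cell lineage. Organoid passaging breaks the cultures up and lets them regrow in a medium rich in growth factors.

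Levels are given in counts per 1000000 gene counts after TMM scaling (CPM), and compare one gene between samples, not genes with each other. The 5 passage 5 values of a gene always follow in the order 6SA Ngn3 + MafA, 6SA Ngn3 + Pdx1, wild-type Ngn3 + MafA, wild-type Ngn3 + Pdx1 and wild-type Ngn3 + Pdx1 + MafA. Samples held 2579583 to 19461008 gene counts at passage 2 and 6053076 to 6884959 at passage 5, so 3 counts corresponded to 0.136 to 1.01 and 0.399 to 0.492 CPM. At passage 2, 7 of the 10 samples summed several libraries, while each passage 5 sample was 1 library of 50 cells.

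A gene was called when the edgeR quasi-likelihood test of the passage difference, averaged over the 5 conditions, had a Benjamini-Hochberg adjusted p under 0.05 over all 24004 genes tested. It called 1222 genes: 325 were higher at passage 5 (1.35% of those tested) and 897 were lower (3.74%). The passage 5 sample lay above both passage 2 samples in all 5 conditions for 1023 genes (4.26%), and below both in all 5 for 865 genes (3.6%). The median log2 fold change over all genes was -0.41. It was -0.09 when only the 13605 genes with counts in every condition and passage were tested. List medians below are to be read against both values. Fold changes are log2 values with their standard error (SE), passage 5 over passage 2, with edgeR adjusted p.

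The size of a difference between batches of the same passage stands beside these counts. Replicate 2 against replicate 1, both at passage 2, gave 1224 calls, 653 higher in replicate 2 (2.72%) and 571 lower (2.38%). This was a fit of condition plus replicate number over the 15 samples, so its count is not on the same footing as the 1222. In that same fit, where the replicate number acts as the block, replicate 3 against the mean of replicates 1 and 2 gave 2844 calls, 1233 higher and 1611 lower. With counts summed over each culture, 382 genes were called between passages, 338 of them among the 1222, and 1304 between the replicates of passage 2, 761 higher in replicate 2 and 543 lower. The spread in the first of these includes the difference between replicates 1 and 2, and in the second it does not. In the fit of condition plus passage, which takes 1 passage difference for all conditions, 616 genes were higher (2.57%) and 1115 lower (4.65%), and 983 of the 1222 were among them.

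Many genes of the endocrine programme were lower at passage 5. Of 24 endocrine transcription factors 12 fell and none rose, and of 29 tested granule and prohormone-processing genes 18 fell and none rose. Their median log2 fold changes were -2.01 and -2.16. Neurog3 and Pdx1, the inducing factors, were lower at passage 5 too, and their part in the other differences was not tested. In bulk pools, fewer endocrine cells and less endocrine RNA per cell cannot be told apart.

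Neurog3 (ENSMUSG00000044312, GRCm38 chr10:62133090-62134763, plus strand) ranged from 34.9 through a median of 103 to 226 CPM at passage 2. At passage 5 it was at 24.9, 38.8, 32.7, 7.87 and 14.6 CPM. The passage 5 sample was below both passage 2 samples in 4 of 5 conditions, 6SA Ngn3 + Pdx1 being the exception, and the 2 ranges overlapped. The log2 fold change was -2.44 (SE 0.45, adjusted p = 0.00444). Reads of the vector's coding sequence and of the cell's own gene both count as Neurog3, and the files do not separate them. In Ngn3-negative cells, Neurog3 was at 0.697 CPM or lower in all 9 samples.

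Pdx1 had a log2 fold change of -1.87 (SE 0.38, adjusted p = 0.00728) and was below both passage 2 samples in all 5 conditions. Mafa was close to 0, at most 8.63 CPM at passage 2 and 3.46 at passage 5, also in cells sorted for the MafA reporter. Its test gave an adjusted p of 1. With counts summed per culture, Neurog3 and Pdx1 missed the threshold (adjusted p = 0.0558 and 0.0579), and with the culture as a random block in limma voom Neurog3 missed it as well.

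**Figure D1:**
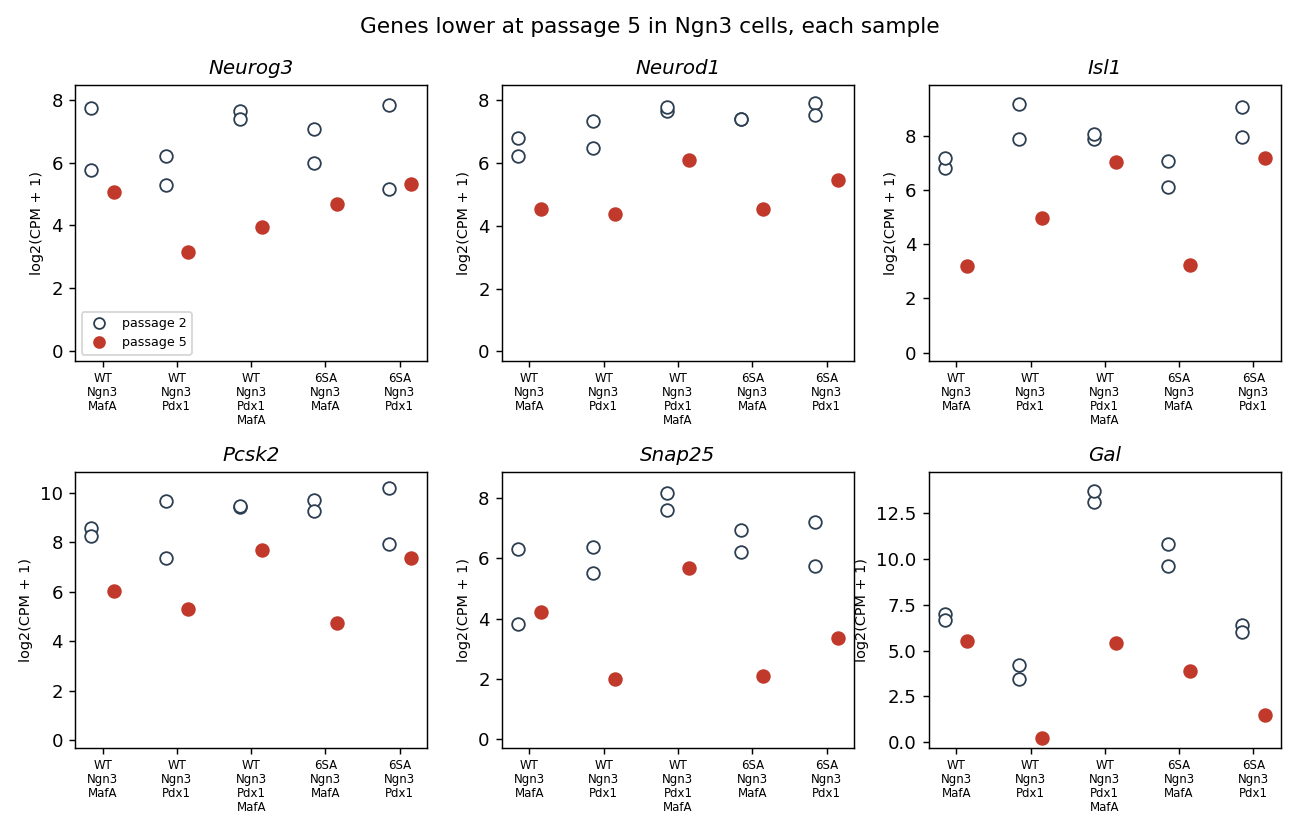
Level of 6 genes in each of the 15 Ngn3 samples, as log2(CPM + 1) on the vertical axis, by condition on the horizontal axis. Open points are passage 2 samples, 2 a condition, and filled points the passage 5 sample. Neurod1, Isl1, Pcsk2 and Gal lie below both passage 2 samples in all 5 conditions, Neurog3 and Snap25 in 4 of 5.

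Neurod1, a direct target of Ngn3 and itself an endocrine activator, did not overlap between the passages. It lay between 73.6 and 240 CPM at passage 2, median 170, and at 22.2, 43.4, 22.1, 20.01 and 67.5 CPM at passage 5. No passage 5 sample reached the lowest passage 2 sample. The log2 fold change was -2.31 (SE 0.29, adjusted p = 0.000362), and it was called under all 13 alternatives and with every sample or replicate left out.

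The start-site region of Neurod1 is shown because Ngn3 binds E-boxes, written CANNTG. Capitals mark the match on either strand, in the 250 bases before the start site on the minus strand, GRCm38.p6 chr2:79456637-79456886, from RefSeq:
Neurod1: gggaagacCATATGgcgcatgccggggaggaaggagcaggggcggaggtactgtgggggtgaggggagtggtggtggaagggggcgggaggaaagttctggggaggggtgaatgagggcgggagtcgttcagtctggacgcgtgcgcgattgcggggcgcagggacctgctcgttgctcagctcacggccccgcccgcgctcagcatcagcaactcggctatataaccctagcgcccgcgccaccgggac
The match begins 242 bases before the start site. E-boxes are short and common: 66.2% of 32851 promoters of this length hold one, against 13 of the 21 called endocrine and granule genes that had a promoter in the table.

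Isl1, a LIM-homeodomain factor of all islet cell types, ranged from 68.1 to 574 CPM at passage 2. At passage 5 it was at 8.41, 142, 8.17, 30.02 and 130 CPM. The lowest levels were those of the 2 conditions of Ngn3 + MafA, and each passage 5 sample lay below both passage 2 samples of its condition, although the ranges overlapped between conditions. Its log2 fold change was -2.74 (SE 0.35, adjusted p = 0.000378).

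Other endocrine factors followed. Runx1t1, a transcriptional corepressor, had a log2 fold change of -2.68 (adjusted p = 0.000788). For the zinc-finger factor St18 it was -2.54 (adjusted p = 0.00114). Rfx6, which is needed for islet cell formation, was at a median of 198 CPM at passage 2 and 34.8 at passage 5 (log2 fold change -2.40). Myt1, Pax6, Rfx3 and Cbfa2t2 were also called lower, as were Neurod2, Pax4 and Lmx1b, which had no counts in 2 combinations of condition and passage each. Insm1, Nkx2-2 and Fev did not pass the test, with log2 fold changes from -1.05 to -2.42, and Foxa2 and Hhex, which duct cells also express, were at -0.38 and -0.09.

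Granule genes were as low. Pcsk2, a convertase that cleaves prohormones, ranged from 162 through 648 to 1162 CPM at passage 2. At passage 5 it was at 25.5, 162, 63.8, 38.2 and 207 CPM. Each passage 5 sample lay below both passage 2 samples of its condition, although the ranges overlapped from 162 to 207 CPM. This was a log2 fold change of -2.96 (SE 0.45, adjusted p = 0.00111).

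Snap25, which joins vesicle and cell membranes at release, had a median of 81.1 CPM at passage 2. It was at 3.21, 9.23, 17.5, 2.95 and 50.5 CPM at passage 5, below both passage 2 samples in 4 of 5 conditions, with a log2 fold change of -3.30 (SE 0.46, adjusted p = 0.000571). The granule cargo gene Chga went from a median of 1896 to 168 CPM. Scg3, another granule protein, had a log2 fold change of -1.88 (adjusted p = 0.00155).

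Ptprn, Pam and Cpe, all granule proteins, did not pass (adjusted p = 0.0658, 0.0842 and 0.0754), with log2 fold changes of -1.76, -0.82 and -1.40. Slc18a2, the vesicular monoamine transporter, was at 0.35. Under the other settings 14 to 25 granule genes and 8 to 15 endocrine factors were called lower, and none higher.

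Hormones did not behave as one group. Of 21 tested, Gal, Sst, Pyy and Iapp fell, none rose, and 17 did not pass. The 21 include 16 with no counts in at least 1 combination of condition and passage, where the averaged test has little to work with.

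Gal, the neuropeptide galanin (ENSMUSG00000024907), was the most uniform of them. It ranged from 9.91 through 113 to 13410 CPM at passage 2, and was at 13.9, 1.75, 45.7, 0.164 and 42.5 CPM at passage 5. The ranges overlapped between conditions, but within every condition the passage 5 sample was below both passage 2 samples. In wild-type Ngn3 + Pdx1 + MafA cells the 2 passage 2 samples stood at 8922 and 13410 CPM and the passage 5 sample at 42.5. The log2 fold change was -5.51 (SE 0.58, adjusted p = 7.28e-05), and it was called under all 13 alternatives.

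Sst, somatostatin of delta cells, was less even. At passage 5 it was at 6.42, 6442, 4.54, 19.03 and 6953 CPM, against 6.13 to 30700 at passage 2. The 6SA Ngn3 + Pdx1 and the 3-factor sample stayed high and the other 3 were near the bottom of the range, while wild-type Ngn3 + MafA replicate 2 was already at 6.13 at passage 2. Its log2 fold change of -5.24 (adjusted p = 0.00509) became -3.82 with an adjusted p of 0.109 in the fit of condition plus passage. Libraries summed into 1 sample differed up to 431-fold for Ghrl, 70.3-fold for Sst and 10.2-fold for Gal. For Neurog3, Eif4ebp1 and Neurod1 they differed up to 6.82-fold, 4.72-fold and 2.55-fold.

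Pyy and Iapp were also uneven. Both were highest at passage 5 in 6SA Ngn3 + Pdx1, at 241 and 1013 CPM, above both passage 2 samples of that condition. In the other 4 conditions Pyy was at 13.4 CPM or lower and Iapp at 389 or lower. Both lost the call in the fit of condition plus passage (adjusted p = 0.104 and 0.0943). Ghrl, the ghrelin gene, showed no difference by the test, with a log2 fold change of -0.10 (SE 0.62, adjusted p = 1). It was at 597, 562, 1168, 2551 and 3053 CPM at passage 5 and at 10.8 to 4934 at passage 2.

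Ins1 had no count in any passage 5 sample of the 5 conditions, which allows up to 0.492 CPM. At passage 2 the counts lay almost wholly in wild-type Ngn3 + Pdx1 + MafA, with 1891 and 271 counts in replicates 1 and 2, or up to 153 CPM. The averaged test gave an adjusted p of 1, since most groups were empty, and the fit of condition plus passage 0.00117. Ins2 had 76 and 6 counts in those 2 samples and none at passage 5. Ins1 and Ins2 are near-identical copies, so reads may be split between them. Gcg, glucagon, was seen in wild-type Ngn3 + MafA replicate 3 at passage 5, at 359 CPM, and in 6SA Ngn3 + MafA replicate 2 at passage 2.

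Genes with the smallest adjusted p among those lower in all 5 conditions went beyond the fixed endocrine lists. Besides Gal, Neurod1 and Isl1 they were Slc24a2, Cacna1c, Mlxipl, Rap1gap2, Hepacam2, Smpd3, Igfbpl1, Gfra3 and Rnf112. Rap1gap2, a regulator of the small GTPase Rap1 in secretory cells, had a log2 fold change of -2.84 (SE 0.38, adjusted p = 0.000518). Hepacam2 was at 0.611, 55.5, 11.3, 16.1 and 77.2 CPM at passage 5 and 31.9 to 540 at passage 2. Smpd3, a neutral sphingomyelinase, had a log2 fold change of -1.78 (SE 0.24, adjusted p = 0.00052).

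Slc24a2, an exchanger of sodium and calcium, Cacna1c, a voltage-gated calcium channel, and Mlxipl, the glucose-responsive factor ChREBP, had no counts in at least 1 passage 5 sample, so that the averaged fold change depends on a prior count. In the fit of condition plus passage their log2 fold changes were -3.62, -4.02 and -4.09. For Gfra3, a receptor subunit for neurotrophic factors, it was -3.60, for Igfbpl1 -3.44 and for Rnf112 -4.80. Each of the 6 was called in that fit, with adjusted p from 0.000261 to 0.00402. Of all 24004 genes tested, 10399 had such an empty group, as had 380 of the 897 lower genes and 9 of the 325 higher genes. Of the 389 called genes with an empty group, 234 were also called in the fit of condition plus passage.

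A list of neuronal cytoskeleton and synapse genes, chosen after the values were seen and counted only as a description, had 19 of 31 genes lower and none higher. Endocrine cells share many of these genes with neurons. The tau gene Mapt, whose protein binds microtubules, went from a median of 14.7 to 1.27 CPM. Syn2, a vesicle coat protein, went from 27.8 to 3.33 CPM.

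Depth of the fall varied by condition. The median difference of the granule list on the log2(CPM + 1) scale was -2.75 in 6SA Ngn3 + MafA, -1.35 in 6SA Ngn3 + Pdx1, -1.62 in wild-type Ngn3 + MafA, -1.64 in wild-type Ngn3 + Pdx1 and -1.76 in wild-type Ngn3 + Pdx1 + MafA. For endocrine factors it was -2.22, -0.80, -1.03, -1.67 and -0.81 in the same order. No gene was called for a passage effect that differed between wild-type and 6SA cultures (edgeR, 0 of 24004, 0%), where 479 genes had an unadjusted p under 0.05 and DESeq2 called 5.

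**Figure D2:**
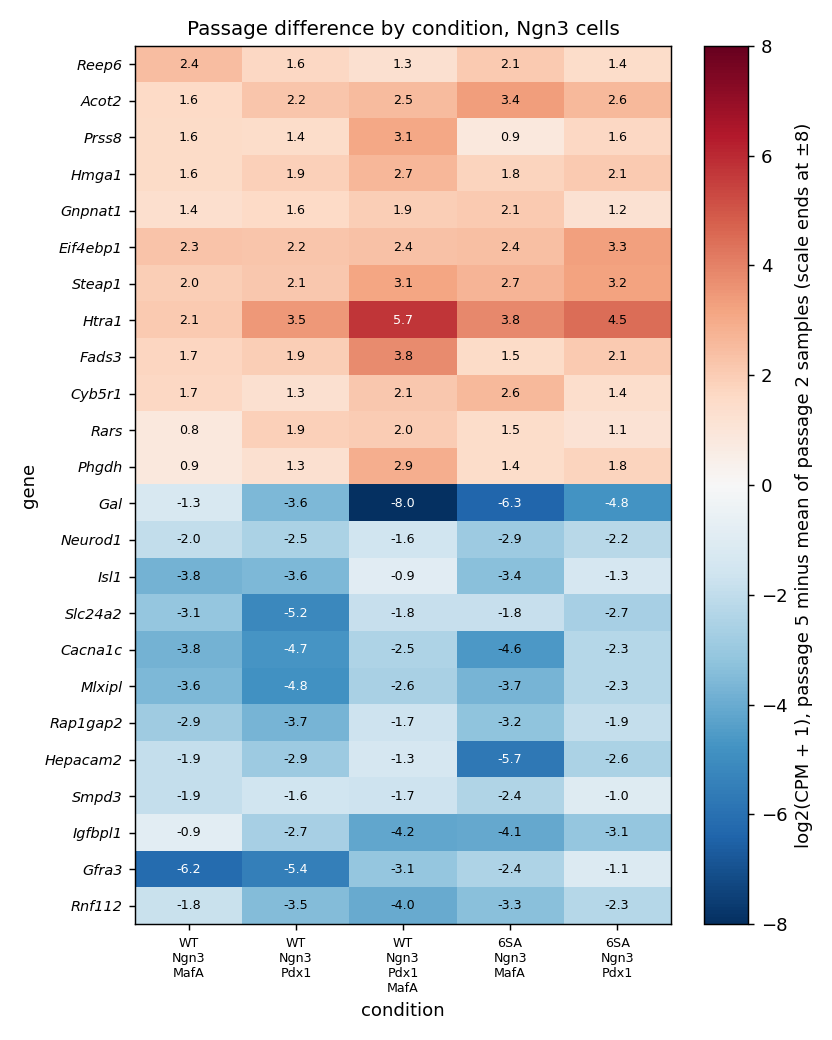
Difference between the passage 5 sample and the mean of the 2 passage 2 samples, on the log2(CPM + 1) scale, for the 12 genes higher and 12 lower with the smallest adjusted p that lay beyond both passage 2 samples in all 5 conditions (vertical axis), by condition (horizontal axis). Red is higher and blue lower at passage 5, and the deepest shades are in wild-type Ngn3 + Pdx1 + MafA, for Gal (-7.97) and Htra1 (5.75).

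The genes that were higher at passage 5 formed a smaller and more even set. The 12 with the smallest adjusted p were Reep6, Acot2, Prss8, Hmga1, Gnpnat1, Eif4ebp1, Steap1, Htra1, Fads3, Cyb5r1, Rars and Phgdh, and in each the passage 5 sample was above both passage 2 samples in all 5 conditions. That agreement was part of how they were picked. Prss8 and Htra1 code for proteases of epithelia and of the extracellular space, Hmga1 for an architectural chromatin protein, and Eif4ebp1 for the repressor of cap-dependent translation that mTOR inactivates.

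Eif4ebp1 ranged from 18.4 through 59.2 to 75.2 CPM at passage 2. At passage 5 it was at 313, 323, 323, 261 and 253 CPM, so that every passage 5 sample was over the highest passage 2 sample. It had a log2 fold change of 2.46 (SE 0.32, adjusted p = 0.000362), and with counts summed per culture it was 2.58 (adjusted p = 0.0159).

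Steap1, a membrane metalloreductase, was at 1.22 to 14.1 CPM at passage 2 and at 66.6, 62.1, 56.7, 46.6 and 25.1 CPM at passage 5. The ranges did not overlap, and the difference was a log2 fold change of 2.77 (SE 0.36, adjusted p = 0.000362).

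Acot2, a mitochondrial acyl-CoA thioesterase, went from a median of 12.8 CPM to 117, 51.6, 78.7, 69.2 and 91.6 CPM, a log2 fold change of 2.53 (SE 0.32). Hmga1 went from 17.2 CPM to 63.9, 77.0, 91.4, 72.2 and 79.0 CPM, a log2 fold change of 2.04 (SE 0.26). Hmga1 reads may be shared with its near-identical copy Hmga1b. Neither gene overlapped between the passages. The share of all genes without overlap was not counted, and being picked for agreement in all 5 conditions favours it.

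Htra1 rose most of the 12, with a log2 fold change of 3.62 (SE 0.51, adjusted p = 0.00055). It was at 2.72 through 20.1 to 322 CPM at passage 2 and at 599, 189, 636, 272 and 451 CPM at passage 5. The ranges overlapped through wild-type Ngn3 + MafA replicate 2, the highest passage 2 sample. It also differed between replicates 2 and 1 at passage 2, by 1.79 (adjusted p = 0.0309).

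**Figure D3:**
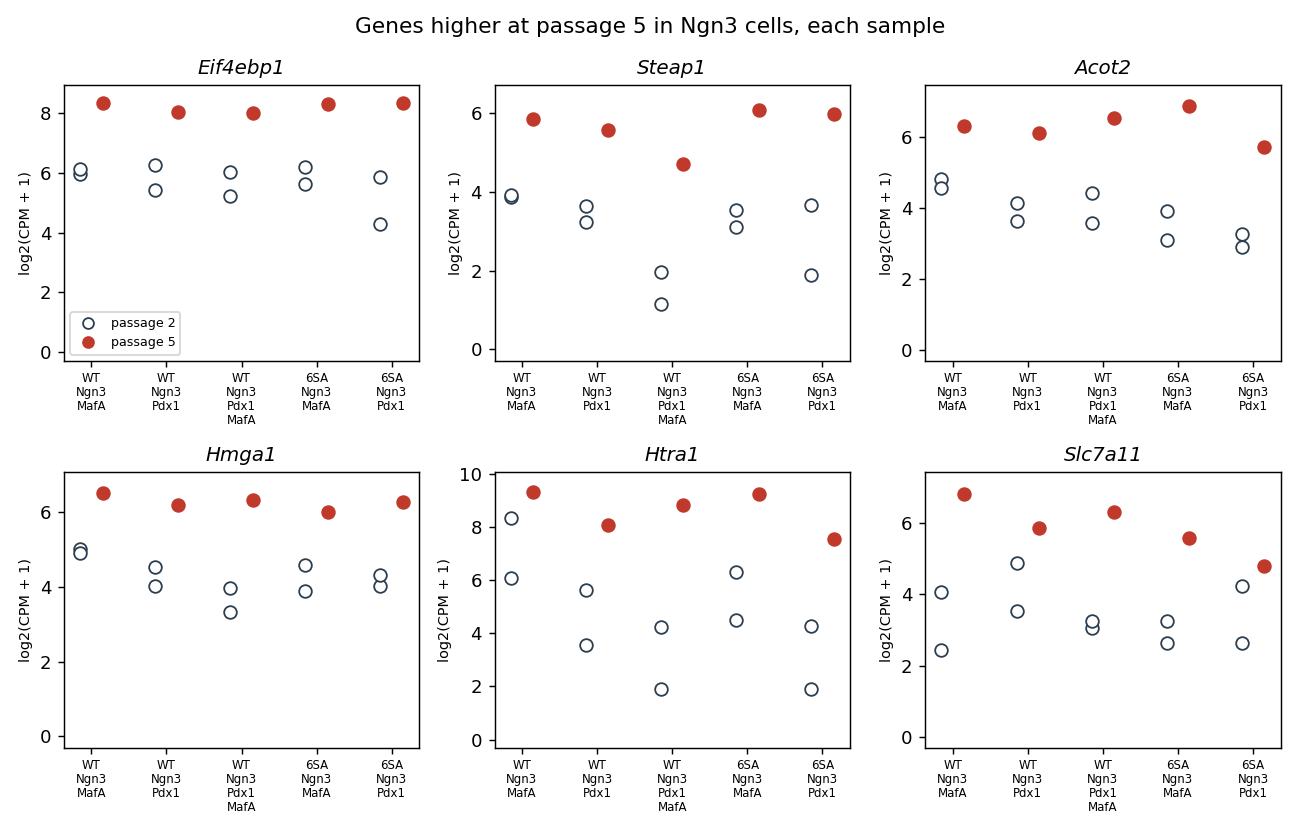
Level of 6 genes that were higher at passage 5 in each of the 15 Ngn3 samples, as log2(CPM + 1), by condition. Open points are passage 2 samples and filled points passage 5 samples. In all 6 genes the filled point is above both open points of its condition.

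Amino acid and translation genes were among the higher ones. Slc7a11, the cystine importer, was at 4.43 to 28.3 CPM at passage 2 and at 46.9, 26.6, 112, 57.4 and 78.5 CPM at passage 5, with a log2 fold change of 2.47 (SE 0.38, adjusted p = 0.00114). Asns, asparagine synthetase, was at 512, 398, 535, 426 and 323 CPM against a passage 2 median of 180, with a log2 fold change of 1.15 (SE 0.30, adjusted p = 0.0299). Asns was not called with counts summed per culture (adjusted p = 0.0831).

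On lists chosen after the values were seen, 4 of 12 genes of serine and one-carbon metabolism were higher and none lower, and 7 of 20 cytosolic aminoacyl-tRNA synthetases were higher and none lower. With counts summed per culture, 3 of the 12 and 0 of the 20 were called. Phgdh, Psat1 and Psph make up the serine synthesis pathway, and their log2 fold changes were 1.64, 1.58 and 1.93. Psph went from a median of 49.2 CPM to 232, 210, 194, 165 and 151 CPM. Mthfd2 was the fourth (0.97), while Tyms was at -0.32 and did not pass. Rars, the arginyl-tRNA synthetase, was at 1.45 (SE 0.22), and Aars, Farsa, Qars and Yars were between -0.07 and 0.02.

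The start-site regions of Slc7a11 and Asns are shown because amino acid response elements hold the letters TTNCATCA, marked in capitals on either strand. Both are the 250 bases before the start site on the minus strand in GRCm38.p6, from RefSeq, at chr3:50443614-50443863 and chr6:7693210-7693459:
Slc7a11: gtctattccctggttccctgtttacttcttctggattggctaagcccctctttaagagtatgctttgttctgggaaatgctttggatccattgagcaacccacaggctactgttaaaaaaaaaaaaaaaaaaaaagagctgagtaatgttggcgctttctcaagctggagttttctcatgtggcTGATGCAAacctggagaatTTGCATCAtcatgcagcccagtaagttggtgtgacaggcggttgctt
Asns: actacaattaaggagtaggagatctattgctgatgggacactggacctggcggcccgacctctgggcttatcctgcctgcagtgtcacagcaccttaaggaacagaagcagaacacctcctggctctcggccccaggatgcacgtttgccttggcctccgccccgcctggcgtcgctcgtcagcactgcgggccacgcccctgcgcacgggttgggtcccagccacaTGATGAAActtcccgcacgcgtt
Slc7a11 holds 2 matches, beginning 66 and 47 bases before the start site, and Asns 1 at 23 bases. The letters occurred in 3.45% of all promoters of this length and in 2.59% of those of the higher genes (6 of 232 with a promoter in the table).

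Some ribosomal protein genes were higher, and their share of the libraries differed as well. Of 24 tested, 9 were higher and none lower, the median log2 fold change was 1.12, and 18 of 24 were above both passage 2 samples in all 5 conditions. Rpl10a went from a median of 60.2 CPM to 124, 154, 123, 140 and 116 CPM (log2 fold change 1.29, SE 0.25, adjusted p = 0.00619). Between 5 and 21 of the 24 were called higher under the other settings, the fewest with RLE scaling, and none lower. Ribosomal protein genes have many pseudogene copies, so that the reads counted depend on how multiple matches were treated.

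Ribosomal protein genes together took 0.439% to 1.26% of gene counts at passage 2 and 1.47% to 2.17% at passage 5, with no overlap. Mitochondrial genes took 3.38% to 11.2% at passage 2 and 8.80% to 11.6% at passage 5. Reads on no gene made up 9.98% to 26.1% and 12.8% to 16.7%, unaligned reads 14.2% to 23.7% and 23.3% to 25.7%, and 16921 to 21462 genes were detected at passage 2 against 17134 to 18649 at passage 5. Ngn3-negative cells differed in the same direction, with ribosomal protein genes at 0.598% to 1.49% and 1.42% to 2.31%. The part of these measures in the gene differences was not tested.

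**Figure D4:**
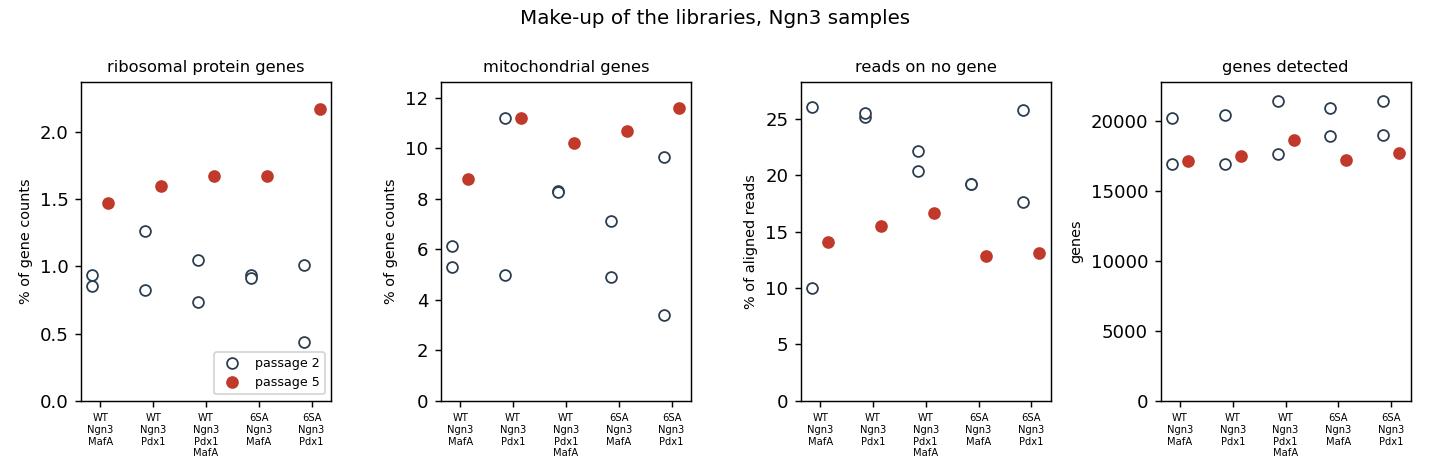
Make-up of the 15 Ngn3 samples by condition: percent of gene counts on ribosomal protein genes and on mitochondrial genes, percent of reads on no gene, and number of genes detected. Filled points are passage 5. The ribosomal share of all 5 passage 5 samples lies above all 10 passage 2 samples, while the other 3 measures overlap.

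Genes of growth and stress were higher in smaller numbers. Of 20 genes on the YAP and TEAD list 4 were higher, where 1.35% of all genes were, and none lower. Ankrd1, F3, Ereg and Wwtr1 had log2 fold changes of 1.75, 1.03, 2.59 and 1.42. Wwtr1 also differed between replicates 2 and 1 at passage 2, by 1.52 (adjusted p = 0.0151). The list's count of higher genes was 1 with counts summed per culture and 9 with the replicate block. Of 24 oxidant and xenobiotic response genes 4 were higher, among them Hmox1, heme oxygenase, at 307, 81.8, 360, 88.6 and 236 CPM against 10.1 to 205 at passage 2. Of 23 Wnt and R-spondin targets 2 were higher and 2 lower, with a median of -0.61. Myc and Ccnd1, both targets of Wnt signalling and drivers of the cell cycle, had log2 fold changes of 1.71 (SE 0.27, adjusted p = 0.00118) and 1.40 (SE 0.23, adjusted p = 0.00181). The lower ones were Rspo4, an R-spondin, at -1.51 (adjusted p = 0.0168) and the receptor gene Tnfrsf19 (adjusted p = 0.0349), which had no counts in 4 combinations of condition and passage. Neither was called in the fit of condition plus passage (adjusted p = 0.0555 and 0.108).

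Gdf15, a stress-induced cytokine, was at 216, 101, 346, 208 and 180 CPM at passage 5 and at 5.81 to 55.2 at passage 2, with a log2 fold change of 2.86 (SE 0.57, adjusted p = 0.00668). It differed between the passage 2 replicates as well, by 2.37 (adjusted p = 2.61e-05). Trp53 had a log2 fold change of 0.85 (adjusted p = 0.0311). Both belong to the list of CDK inhibitors, p53 targets and senescence genes, of which 2 of 26 were higher and 2 lower, with a median of 0.08. The lower ones were Sesn1 at -1.63 (adjusted p = 0.0204) and the CDK inhibitor gene Cdkn2d at -1.82 (adjusted p = 0.0254). In the fit of condition plus passage Cdkn2d was called (adjusted p = 0.0141) and Sesn1 was not (0.0587). With counts summed per culture no gene of the list was called lower and 1 was called higher. Of 24 NF-kB and innate immunity genes 3 were higher and none lower, with a median of -0.03. The higher ones were the chemokines Cxcl16 and Ccl20 and the inhibitor Nfkbia. With counts summed per culture none of the 24 was called. Of 26 imprinted genes 2 were higher and 3 lower, and with counts summed per culture 2 were higher and none lower. The higher ones, Grb10 and Phlda2, restrainers of growth, had log2 fold changes of 2.93 and 2.86. Of the lower ones, Peg3 was at -1.69. The long non-coding RNA Meg3, empty in 1 passage 5 sample, was at -3.99 in the fit of condition plus passage.

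In wild-type Ngn3 + Pdx1 + MafA cells several of these genes started far lower. Ankrd1 was at 53.2 and 0.878 CPM in the 2 passage 2 samples of that condition and at 85.9 to 444 in the other 8, and it was at 572 at passage 5. Myc was at 17.2 and 12.3 CPM there and at 34.5 to 209 in the others. The median of the YAP and TEAD list differed by 2.14 in that condition and by 0.09 to 0.90 in the other 4. Without that condition's passage 5 sample, which removes the condition from the contrast, 620 genes were called, 105 higher and 515 lower.

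None of 24 duct markers was called, and the median log2 fold change was 0.25. Under other settings 0 to 2 were called higher and 0 or 1 lower. The keratin gene Krt7 was at 619 to 1840 CPM at passage 2 and 655 to 1330 at passage 5, and Sox9, a duct transcription factor, at 22.1 to 203 and 156 to 242. Krt19 was at 5.27 to 401 and 36.8 to 388. Ambp, a secreted protein gene on the same list, was at 66.4 to 623 CPM at passage 2 and 16.7 to 139 at passage 5. Its log2 fold change was -1.99 (adjusted p = 0.0688), and in the fit of condition plus passage its adjusted p was 0.00816. 

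Markers of other cells were low. The acinar list summed to 3.52 to 50.6 CPM at passage 2 and 5.20 to 21.3 at passage 5, with 10 of 20 genes at 0 in all 15 samples, among them Prss1, Cpa1, Ptf1a and Amy2a5. Of its 8 tested genes 1 was called, lower at passage 5. The mesenchymal list summed to 23.3 to 423 and 20.4 to 71.8 CPM, with Dcn and Lum at 0 and Col1a2 at up to 188 at passage 2 and at 0 at passage 5, and none of its 9 tested genes was called. The endothelial and blood list summed to 3.63 to 49.3 and 10.6 to 23.1 CPM, with Ptprc and Hba-a1 at 0. The Y-linked genes Ddx3y, Eif2s3y, Kdm5d and Uty were expressed in every sample, at 25.5 CPM or higher, and Xist was at 0.489 CPM or lower.

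Of 24 mitosis genes 2 were lower at passage 5, Kif20a and Bub1, where 3.74% of all genes were, and neither was called in the fit of condition plus passage (adjusted p = 0.0651 and 0.139). The list's median was -1.13, and that of replicate 2 over replicate 1 at passage 2 was 1.85, with 4 genes higher. By condition, on the log2(CPM + 1) scale, it was -3.31 in 6SA Ngn3 + Pdx1 and -0.42 to 0.36 in the other 4. None of 20 Notch pathway, 16 antigen presentation, 24 oxidative phosphorylation or 13 mitochondrial transcript genes was called. Of 24 DNA replication genes 1 was called, lower, and the median was -0.51. This was Lig1, a DNA ligase, which had a log2 fold change of -2.64 and was called under all 13 alternatives.

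**Figure D5:**
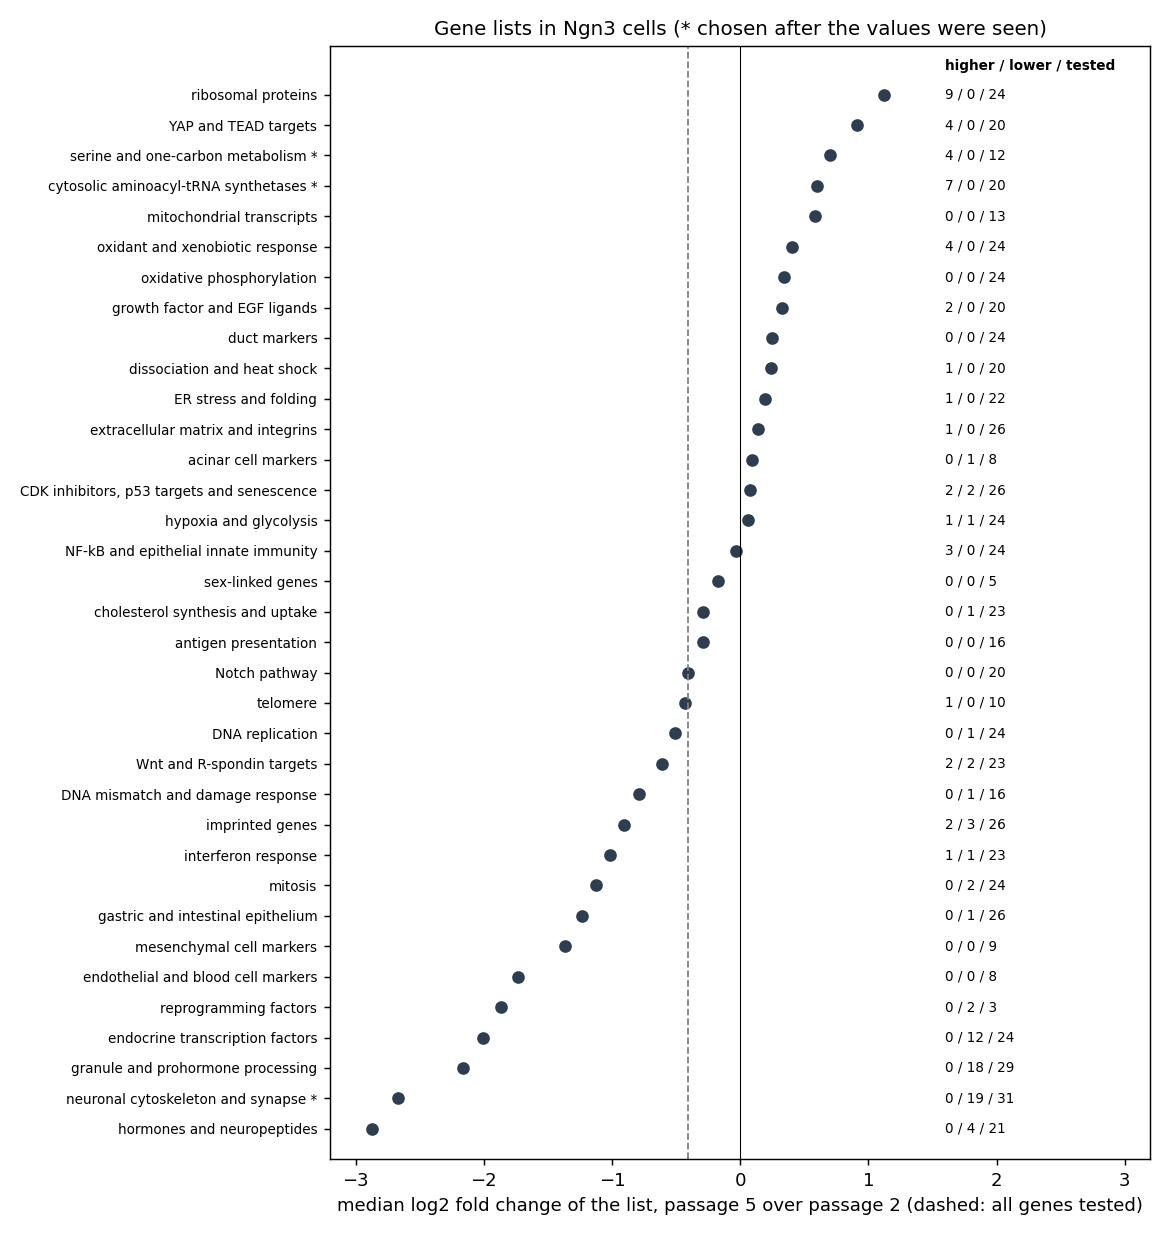
Median log2 fold change of each gene list in Ngn3 cells, passage 5 over passage 2 (horizontal axis), with the numbers of genes called higher, called lower and tested at the right. The dashed line marks the median of all genes tested, -0.41. With only genes that had counts in every condition and passage that median was -0.09. Of the 21 hormones, 16 had no counts in at least 1 combination of condition and passage. Endocrine, granule, neuronal and hormone lists are at the low end and ribosomal proteins at the high end.

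Ngn3-negative cells, sorted without GFP, were compared to ask whether the difference belonged to Ngn3 cells. Over 3 conditions and 9 samples, 51 genes were called lower at passage 5 (0.212%) and none higher (0%), with 3028 at an unadjusted p under 0.05; DESeq2 called 798. The difference between the passage effects of Ngn3 and Ngn3-negative cells was called for no gene (edgeR, 0 of 24004, 0%), with 1281 genes at an unadjusted p under 0.05 and a smallest adjusted p of 0.071. DESeq2 called 151 genes. Whether a passage effect was particular to Ngn3 cells thus depended on the tool, and for genes hardly expressed in Ngn3-negative cells it could not be compared.

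Values in both cell kinds differed by gene. Eif4ebp1 had a log2 fold change of 1.66 in Ngn3-negative cells (adjusted p = 0.099), against 2.46 in Ngn3 cells. The ribosomal protein median was 1.09 there, against 1.12. Prss8 and Ccnd1 were at -0.13 and -0.48 in Ngn3-negative cells, and the difference had an adjusted p of 0.202 and 0.276. Neurod1, Isl1 and Pcsk2 were at 0.723 CPM or lower in all 9 Ngn3-negative samples, too low for a passage comparison there.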

How the data were processed

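Pools of 50 sorted cells were amplified by Smart-seq2, tagged with Nextera XT and sequenced as single-end 50-base reads. The authors aligned reads with GSNAP (version 2015-09-29 per the labels) to mm10 and deposited raw counts per Ensembl release 81 gene from HTSeq 0.5.3p3. The strand setting is not given in the sources used here, so genes that overlap another cannot be told apart from it (660 of the 1222 called genes overlap another GENCODE vM21 gene). Gene symbols matched 45143 of 46078 genes. HTSeq summary rows and 92 spike-ins stayed out of library sizes.

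Libraries with over 1000000 gene counts, under 25% spike-in counts and over 10000 genes detected were kept (58 of 61, 3 left out), and libraries of one replicate were summed. No 2 of the 15 samples had identical counts. Tests took in every gene seen in at least 5 kept libraries whose log2(CPM + 1) varied by more than 0.001 (variance). edgeR 4.0.16 (R 4.3.3) used TMM factors, trended dispersion and quasi-likelihood tests with 1 mean per condition and passage over all 32 samples, checked on simulated counts. The replicate comparison was fitted as condition plus replicate number over the 15 Ngn3 samples. Members and lists were chosen with earlier results of these data known. Named genes were the reprogramming factors, hormones and sex-linked genes; up to 4 called genes of each list by adjusted p; the 12 higher and 12 lower genes with the smallest adjusted p that lay beyond both passage 2 samples in all 5 conditions; and up to 5 called genes per direction of the Ngn3 interaction, of which there were none. Other list genes were named after their values were seen. Alternatives were DESeq2 1.42.0, limma 3.58.1, other filters, scalings and models, and leaving out samples. Replicate numbers were checked for pairing: over 5000 genes the difference of replicate 2 from replicate 1 correlated between conditions at 0.0258 to 0.678. Whether samples of one number share a culture is not in the labels, and p-values then measure the spread between these samples. Intervals and floors cover counting error only. Some genes that the rule names are not reported here.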

Additional observations from a re-analysis of the deposited data

Results flagged for a closer look

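Single samples or conditions stood apart in 6 cases among 14 library measures and 79 named called genes tested by Dixon's ratio, which flags about 1 in 20 groups by chance. The ribosomal protein share was 2.17% in 6SA Ngn3 + Pdx1 at passage 5, against 1.47% to 1.67% in the other 4. Reads on no gene were 9.98% in wild-type Ngn3 + MafA replicate 2, against 17.6% to 26.1% in the other 9 passage 2 samples. On the log2(CPM + 1) scale, the passage difference of Scg3 was -3.30 in 6SA Ngn3 + MafA, against -1.61 to -0.99 elsewhere. That of Brca1 was 1.18 in wild-type Ngn3 + Pdx1 + MafA, against -2.17 to -1.33. That of Eif4ebp1 was 3.26 in 6SA Ngn3 + Pdx1, against 2.20 to 2.39. That of Fads3 was 3.75 in wild-type Ngn3 + Pdx1 + MafA, against 1.52 to 2.12.

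For 2 of the 79 genes all 5 Ngn3 conditions moved one way and all 3 Ngn3-negative conditions the other. The mean difference of Ccnd1 in Ngn3-negative cells was -0.47, against 0.55 to 3.11 in the Ngn3 conditions. That of Grb10 was -0.68, against 1.89 to 3.12. In the edgeR test of that difference the adjusted p was 0.276 for Ccnd1 and 0.425 for Grb10.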

How the results depend on the processing

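Among the alternative results for single named genes, 1478 kept direction and side of the threshold, 136 lost the call, 17 gained it and 0 reversed. The 1222 calls between passages in Ngn3 cells became 3114 with DESeq2, 2780 with no gene filter, 2096 with all libraries, 2550 with only the 15 Ngn3 samples, 2844 with the replicate block (1091 shared) and 382 with culture sums. RLE scaling gave 256 higher and 1073 lower, and the first technical repeat alone 514 and 686, so that 80.7% and 57.2% of calls were lower, against 73.4%; the condition plus passage fit gave 64.4%. Requiring counts in every condition and passage, chosen after seeing the data, gave 1012 calls. Leaving out samples gave 479 to 3578 calls, the fewest without 6SA Ngn3 + MafA replicate 3 and the most without replicate 2 in every condition, where condition plus passage was fitted. Counts fell by over 1.5 times also without replicate 3 of 6SA Ngn3 + Pdx1 (683), wild-type Ngn3 + MafA (734), wild-type Ngn3 + Pdx1 (632) and wild-type Ngn3 + Pdx1 + MafA (620), and without replicate 1 of 6SA Ngn3 + Pdx1 (769) or wild-type Ngn3 + Pdx1 (772). Removing a passage 5 sample removes its condition from the contrast. For the rest the cause was not tested.

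The 51 calls in Ngn3-negative cells became 798 with DESeq2, 953 with no gene filter, 32 with edgeR's newer dispersion setting, 3 with the first technical repeat alone, and 0 (without 6SA MafA replicate 3) to 1664 (without replicate 2) with samples left out. The difference between Ngn3 and Ngn3-negative cells gave 151 calls with DESeq2, 1 with filterByExpr and 135 with no gene filter, and 0 to 19 with samples left out. The difference between wild-type and 6SA cultures gave 5 with DESeq2, 53 with no gene filter, and 0 to 7. Replicate 2 against replicate 1 gave 2278 with DESeq2, 646 with all libraries, 1304 with culture sums, and 610 to 1623 with samples left out; it cannot be computed without replicate 1 or 2. The pairing correlations were not all over 0.1, so the replicate numbers were not treated as pairs.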

Other observations

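The 6SA Ngn3 + Pdx1 + MafA condition entered no comparison because its passage 5 library held 408733 gene counts. In that library, on CPM within the library, Neurog3 was at 29.4, against 99.4 to 389 in the 5 passage 2 libraries of the condition. Snap25 was at 34.3, against 66.2 to 304. Eif4ebp1 was at 330 against 20.8 to 179, Htra1 at 262 against 3.69 to 74.5, Steap1 at 22.0 against 0 to 10.4 and Slc7a11 at 19.6 (8 counts) against 0.372 to 4.14. Acot2 was at 71.0, within 6.73 to 74.5, and Pdx1 at 179, within 155 to 422. Gal was at 4630, within the 2140 to 21700 of the passage 2 libraries, and Isl1 at 367, above their 90.4 to 269. Neurod1 was at 157, within 127 to 393, and Sst at 17100, within 1850 to 82800.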
